A study of Cyprinus carpio with 2 samples.

Results

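Cell junction genes were compared between the immature testis and ovary of juvenile common carp (Cyprinus carpio). The genes were chosen by name. They were the unigenes, numbered transcript units of the deposited tables, whose gene symbol begins with that of a claudin, a cadherin, a protocadherin, a tight junction protein (tjp), occludin, a connexin, F11r, or an alpha- or delta-catenin. This gave 77 unigenes of 32 symbols among 22634 unigenes of all kinds, of which 74 stood in the expression table. The other 3, those of cldnc, cldn7a and cdh2, were found only in the authors' list of unigenes higher in testis, which fixed their direction. The unigene of cldn11a, a claudin of Sertoli cells in mammals that also comes from that list alone, was kept out of the set. It held 9 ovary and 685 testis reads, 101.5-fold (95% interval 53.1 to 222.9) higher in testis. By family there were 12 claudin, 8 cadherin, 1 protocadherin, 9 connexin, 31 tight junction scaffold and membrane protein, and 16 catenin unigenes.

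The study sequenced RNA of immature gonads at 110 to 130 days post hatch, with 1 library of testis and 1 of ovary from fish for which the labels give no strain or treatment. The labels say that gonads were extracted individually, and not how many fish a library holds. Since each tissue has a single library, the differences have no replicate check and carry no p-value of their own. Intervals are exact Clopper-Pearson 95% intervals on the ratio of reads and cover counting error only. The tables call their value columns A and B. A was taken as ovary because the authors' ovary list has A above B in all of its 127 unigenes, and B as testis because their testis list has B above A in all of its 171. Every direction given here rests on the titles of those lists. The tables held 4311799 ovary and 1926860 testis reads, of which the junction unigenes took 26397 and 8994. Over all unigenes the median deposited ratio was 1.78-fold in favour of ovary, so folds are given relative to that median unless the text says deposited. In whole gonads, fewer cells of a type and less RNA per cell cannot be told apart.

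Cells in a sheet or follicle are held together by several kinds of junction. Claudins and occludin are membrane proteins of tight junctions, which seal the space between cells, and the tjp proteins (ZO proteins) tie them to the actin skeleton. Classical cadherins bind cell to cell in the presence of calcium, and catenins hold their tails and connect them to actin. Connexins form the channels of gap junctions. In vertebrate gonads the best known examples are the tight junctions between Sertoli cells in the testis and the gap junctions between the oocyte and its follicle cells in the ovary.

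The ovary library was richer in the claudins cldnd, cldng and cldn7b, in both occludins and in the cadherins cdh12a and cdh13. The testis library was richer in cldnc, cldn7a and cdh2, which entered by the authors' selection, and in 1 unigene of cdh1 and the delta-catenin ctnnd1. Scaffold proteins and connexins lay on both sides. A unigene was counted as higher in a tissue if it was at least 4-fold apart on the log2 scale of values plus 1, relative to the median, with at least 5 deposited units in the higher library. Of the 77 unigenes 71 reached that floor, and 6 did not. Among these 17 (23.9%) were higher in ovary, against 11.2% of all unigenes, and 10 (14.1%) were higher in testis, against 13.8% of all unigenes. The share toward testis was thus near that of all unigenes, and without the 3 unigenes of the authors' testis list it was 7 of 68 (10.3%), against 13.2%. The remaining 44 unigenes were called in neither direction. On the deposited scale 25 were at least 4-fold toward ovary and 6 toward testis, against 23.2% and 6.14% of all unigenes. The median log2 ratio of the junction unigenes was -0.25, where all unigenes lie at 0. It was -0.43 with the unigenes of each symbol summed. With equal total reads in both libraries it was 0.50, where the median of all unigenes is 0.75. That rescaling shifts every unigene's ratio alike, so the distance from all unigenes is fixed and gives no separate check.

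**Figure D1:**
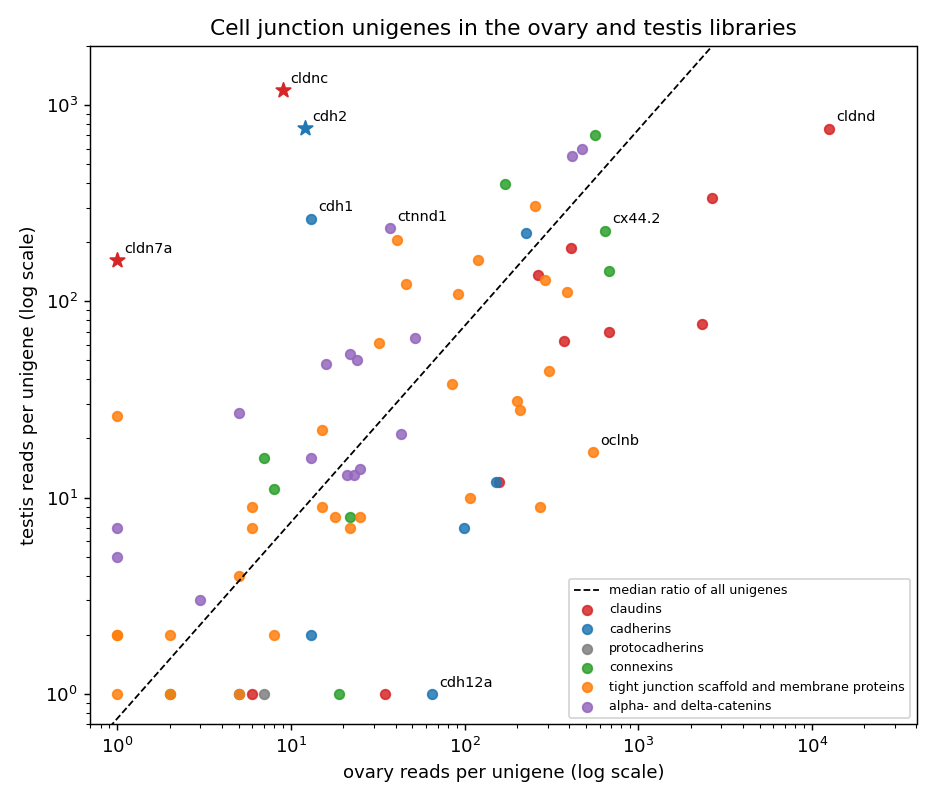
Reads per unigene in the ovary library (x axis) and the testis library (y axis), both on log scales. Each point is 1 of the 77 junction unigenes, coloured by family; stars mark the 3 found only in the authors' testis list, and the dashed line is the median ratio of all unigenes. Most claudin points lie below the line, with cldnd at 12500 ovary and 759 testis reads, while cldnc, cldn7a and cdh2 lie far above it.

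Claudins held more ovary reads than any other family. In testis they led only through cldnc and cldn7a, since the claudins of the expression table held 1640 testis reads and the catenins 1718. Of the 12 claudin unigenes 7 were higher in ovary, 2 in testis and 3 in neither, against 11.2% and 13.8% of all unigenes toward ovary and testis, and their median log2 ratio was -2.35. Both testis calls were the members selected by the authors, and without them 7 of 10 were higher in ovary and 0 in testis. Summed, they held 19398 ovary and 2997 testis reads, 4.85-fold (95% interval 4.67 to 5.05) higher in ovary. Without cldnc and cldn7a the sum was 8.87-fold (95% interval 8.43 to 9.33) higher. With cldn11a added to all 12 it was 3.95-fold (95% interval 3.82 to 4.1) higher, so the direction of the sum did not rest on which testis claudins were counted.

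The unigene with the most reads of the set was cldnd (Unigene_45819), a claudin of fish whose deposited protein name is claudin-like protein ZF-A89. It had 12500 ovary and 759 testis reads, 12.4-fold (95% interval 11.5 to 13.3) higher in ovary. Both unigenes of cldng, another claudin with a letter name, lay on the same side. Unigene_15825 had 2323 ovary and 77 testis reads, 22.6-fold (95% interval 18 to 28.8) higher in ovary. Unigene_15826 had 2643 ovary and 335 testis reads, 5.92-fold (95% interval 5.28 to 6.65) higher. The cldng unigenes were thus nearly level with each other in ovary and apart in testis. The unigene of cldna held 35 ovary reads and 1 testis read, a ratio of 26.25-fold (95% interval 4.41 to 1066.1) toward ovary that a single testis read makes imprecise. The claudin domain gene cldnd1a had 158 ovary and 12 testis reads, 9.88-fold (95% interval 5.5 to 19.5) higher in ovary. Its relative cldnd1b differed least of the claudins, with 675 ovary and 322 testis reads over both unigenes, 1.57-fold (95% interval 1.38 to 1.8) toward ovary, a side it leaves when both libraries are given equal total reads. For cldnh, 6 ovary reads and 1 testis read gave an interval that holds the median ratio.

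The copies of claudin-7, a claudin that in mammals binds the adhesion protein EpCAM, lay on opposite sides. The unigenes of cldn7b held 676 ovary and 70 testis reads (Unigene_17757) and 372 ovary and 63 testis reads (Unigene_68242), together 5.91-fold (95% interval 4.93 to 7.13) higher in ovary. The unigene of cldn7a (Unigene_63216) held 1 ovary and 162 testis reads, 216-fold (95% interval 38.2 to 8583.5) higher in testis. In ovary cldn7b therefore had 1048 reads for the single cldn7a read, whereas in testis cldn7a had 1.22 times the reads of cldn7b. A ratio of this kind within a library does not depend on the scaling between libraries. The unigene of cldnc (Unigene_64787) held 9 ovary and 1195 testis reads, 177-fold (95% interval 93 to 388.1) higher in testis, with more testis reads than any other unigene of the set. The authors' selection for testis brought both cldn7a and cldnc into the set, so their direction is a description and not a result about claudins.

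The make-up of claudin reads within a library is likewise free of the scaling, although reads per unigene are not corrected for transcript length and do not rank the levels of different claudins. In ovary cldnd held 64.4% (95% interval 63.8 to 65.1) of the claudin reads and cldng 25.6% (95% interval 25 to 26.2). In testis cldnc held 39.9% (95% interval 38.1 to 41.7), cldnd 25.3% (95% interval 23.8 to 26.9) and cldng 13.8% (95% interval 12.5 to 15). The share of cldnc in ovary was 0.0464%. Part of this difference comes from the members picked for testis. Among the claudins of the expression table alone, cldnd held 64.5% in ovary and 46.3% in testis, cldng 25.6% and 25.1%, cldn7b 5.41% and 8.11%, and cldnd1b 3.48% and 19.6%. Without the members picked for testis, the share of cldnd was thus still lower in testis, those of cldn7b and cldnd1b were higher, and cldng held nearly the same share in both.

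**Figure D2:**
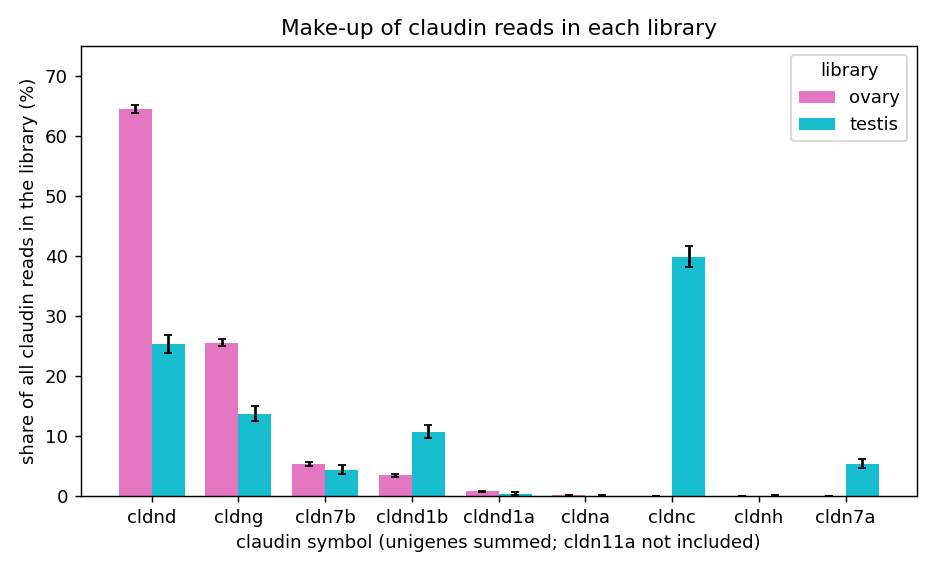
Share of all claudin reads of a library (y axis, percent) held by each claudin symbol (x axis, unigenes summed, without cldn11a), with bars for the ovary and testis libraries and exact 95% counting intervals. The ovary bar is highest at cldnd with 64.4% and the testis bar at cldnc with 39.9%.

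Occludins were the other tight junction membrane proteins with a large difference. For oclna, Unigene_16428 had 273 ovary and 9 testis reads, 22.75-fold (95% interval 11.8 to 50.3) higher in ovary, while its other 2 unigenes had 5 and 2 ovary reads. For oclnb, Unigene_18078 had 549 ovary and 17 testis reads, 24.2-fold (95% interval 15 to 41.9) higher, and Unigene_18079 had 308 ovary and 44 testis reads, 5.25-fold (95% interval 3.82 to 7.38) higher. Unigene_16428 and Unigene_18078 are also the members that the authors put in their ovary list. In the authors' deposited table their p-values are 0.0458 and 0.0459, whereas that of cldnd, with far more reads, is 0.68 in the authors' deposited table, and no header says how these were computed. The authors' ovary list took 2 of the 77 junction unigenes and 0.561% of all unigenes, and their testis list took 3 and 0.756%. Those 3 are in the set only because that list was used to choose members, so their share cannot be set against that of all unigenes. The junctional adhesion molecule F11r, an immunoglobulin-like protein of tight junctions, had a pair of unigenes on either side of the median. Unigene_14455 of f11r.1 had 208 ovary and 28 testis reads, 5.57-fold (95% interval 3.74 to 8.59) higher in ovary. Unigene_14456 had 119 ovary and 162 testis reads, 1.82-fold (95% interval 1.42 to 2.32) toward testis relative to the median and nearly level as deposited. Summed, f11r.1 was 1.29-fold (95% interval 1.08 to 1.55) toward ovary, and toward testis with equal total reads.

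The tjp scaffold proteins, which bind claudins and occludin from inside the cell, were spread over 24 unigenes and lay closer to the median. The 6 unigenes of tjp1a together held 219 ovary and 455 testis reads, 2.77-fold (95% interval 2.35 to 3.27) toward testis. Its most uneven unigene, Unigene_70703, had 41 ovary and 206 testis reads, and Unigene_70704 had 46 and 122. The 7 unigenes of tjp1b held 168 ovary and 133 testis reads in all, a ratio of 1.06 (95% interval 0.834 to 1.33) of testis over ovary. Yet they spanned the widest range of any symbol, from 107 ovary and 10 testis reads in Unigene_23056 to 1 ovary and 26 testis reads in Unigene_70705. The unigenes of tjp2a summed to 1.6-fold (95% interval 1.31 to 1.98) and those of tjp2b to 1.16-fold (95% interval 1.03 to 1.32) toward ovary. Those 2 sums turn toward testis when both libraries are given equal total reads. Within tjp2b, Unigene_18235 had 388 ovary and 112 testis reads and Unigene_70901 had 253 and 305. For tjp3 the sum was 313 ovary and 78 testis reads, 3.01-fold (95% interval 2.34 to 3.91) toward ovary. Over occludins, F11r and tjp together, 6 of the 26 unigenes above the floor were higher in ovary and 2 in testis, against 11.2% and 13.8% of all unigenes. The median log2 ratio of the 31 was -0.21, a value that was 0.21 with a pseudocount of 10. With a floor of 20 units it was -0.72, where all unigenes over that floor have -0.18.

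Cadherins lay far out on both sides. The unigene of cdh2 (Unigene_72605), N-cadherin, which in mammals joins Sertoli and germ cells, held 12 ovary and 766 testis reads, 85.1-fold (95% interval 48.4 to 165.4) higher in testis, as its selection by the authors fixed. The unigenes of cdh1, the epithelial E-cadherin, differed from each other. Unigene_71810 had 13 ovary and 264 testis reads, 27.1-fold (95% interval 15.6 to 51.5) higher in testis. Unigene_71811 had 226 ovary and 222 testis reads, 1.31-fold (95% interval 1.08 to 1.58) toward testis relative to the median and toward ovary as deposited. Together they were 2.71-fold (95% interval 2.32 to 3.18) higher in testis. The cdh1 unigenes come from the expression table and are not in the authors' testis list. Toward ovary stood cdh12a, a type II cadherin, and cdh13, T-cadherin, which is anchored in the membrane without the tail that catenins bind. The unigenes of cdh12a had 65 ovary reads and 1 testis read (Unigene_10547) and 99 ovary and 7 testis reads (Unigene_10548), together 15.4-fold (95% interval 7.62 to 36.2) higher in ovary. Unigene_7816 of cdh13 had 151 ovary and 12 testis reads, 9.44-fold (95% interval 5.25 to 18.7) higher, and its other unigene 13 and 2 reads. The summed cadherins were 2.91-fold (95% interval 2.64 to 3.22) toward testis, and 1.19-fold (95% interval 1.05 to 1.34) without cdh2, a remainder that lies toward ovary as deposited, so that sum rests largely on 1 selected unigene. By count, 3 of the 8 cadherin unigenes were higher in ovary and 2 in testis, against 11.2% and 13.8% of all unigenes, and without cdh2 it was 3 and 1 of 7. The only protocadherin, pcdh8, had 7 ovary reads and 1 testis read, and cdh26.1 had 5 and 1, both with intervals that hold the median.

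Alpha- and delta-catenins had a median on the other side of that of the claudins. Of 16 unigenes 4 were higher in testis and 0 in ovary, against 13.8% and 11.2% of all unigenes, and the median log2 ratio was 0.78. On the deposited scale it was -0.05, where all unigenes lie at -0.83. The 4 called, which belong to ctnnd1 and ctnnd2a, all have numbers from 23700 on, where the median ratio of all unigenes lies toward testis. Against the median of their own range none of the 4 was called, and 2 others were, Unigene_11834 and Unigene_11837 of ctnnd1, both toward testis. Of the 4, Unigene_70493 of ctnnd1 had 1 ovary and 5 testis reads, with an interval (0.746 to 315.3) that holds the median. The intervals of 9 excluded the median toward testis and of 0 toward ovary, against 27.5% and 30.1% of all unigenes. Most of these 9 also have numbers from 23700 on, and the intervals were not set against the median of the range. Against that median, both unigenes of ctnna1 and Unigene_54599 of ctnnal1 lay toward ovary, and the rest of the 9 toward testis. The 5 unigenes of ctnnd1, p120-catenin, which keeps cadherins at the membrane, held 91 ovary and 355 testis reads together, 5.2-fold (95% interval 4.12 to 6.62) higher in testis. All 5 lay above the median, although Unigene_11835 falls below 0 as deposited, and they ran from 13 ovary and 16 testis reads in Unigene_11835 to 37 ovary and 236 testis reads in Unigene_70496. The unigenes of ctnnd2a, the related delta-catenin known from neurons, held 31 ovary and 91 testis reads, 3.91-fold (95% interval 2.58 to 6.09) toward testis, with 5 ovary and 27 testis reads in Unigene_47867 and 1 and 7 in Unigene_45578. The unigene of ctnnd2b had 25 ovary and 14 testis reads, and its interval holds the median. The alpha-catenin ctnna1, which links beta-catenin to actin, had 416 ovary and 550 testis reads in Unigene_72292 and 472 and 596 in Unigene_72293. Its sum was 1.72-fold (95% interval 1.58 to 1.88) toward testis relative to the median and 1.03-fold toward ovary as deposited. Against the median of their own number range, Unigene_72292 had a log2 ratio of -0.33 and Unigene_72293 one of -0.39, both toward ovary. For the alpha-catenin relative ctnnal1, 139 ovary and 112 testis reads over 4 unigenes gave an interval that holds the median.

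Connexin transcripts were measured for 4 symbols, and 1 of the 8 unigenes above the floor was called, toward ovary, against 11.2% of all unigenes in that direction. The summed connexins held 2114 ovary and 1510 testis reads, a ratio of 1.05 (95% interval 0.982 to 1.12) of ovary over testis. The symbol with the most reads was cx43.4, with 1413 ovary and 1244 testis reads in 3 unigenes that did not lie together. Unigene_18725 had 678 ovary and 143 testis reads, 3.56-fold (95% interval 2.97 to 4.29) toward ovary. Unigene_18724 had 564 ovary and 706 testis reads, 1.67-fold (95% interval 1.49 to 1.87) toward testis relative to the median and toward ovary as deposited. Unigene_64522 had 171 ovary and 395 testis reads, 3.08-fold (95% interval 2.57 to 3.71) toward testis. The unigene of cx44.2 had 643 ovary and 229 testis reads, 2.11-fold (95% interval 1.81 to 2.46) toward ovary. Within the connexin reads of a library, cx43.4 held 66.8% in ovary and 82.4% in testis, and cx44.2 held 30.4% and 15.2%. The called unigene was Unigene_6239 of cx55.5, a connexin known in zebrafish from the retina, with 19 ovary reads and 1 testis read. That single testis read makes its ratio of 14.25-fold (95% interval 2.27 to 592.1) imprecise. The other cx55.5 unigenes had 22 ovary and 8 testis reads and 2 and 1, with intervals that hold the median. Summed, cx55.5 was 3.23-fold (95% interval 1.6 to 7.2) toward ovary. The pair of cx23 unigenes held 15 ovary and 27 testis reads in all.

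**Figure D3:**
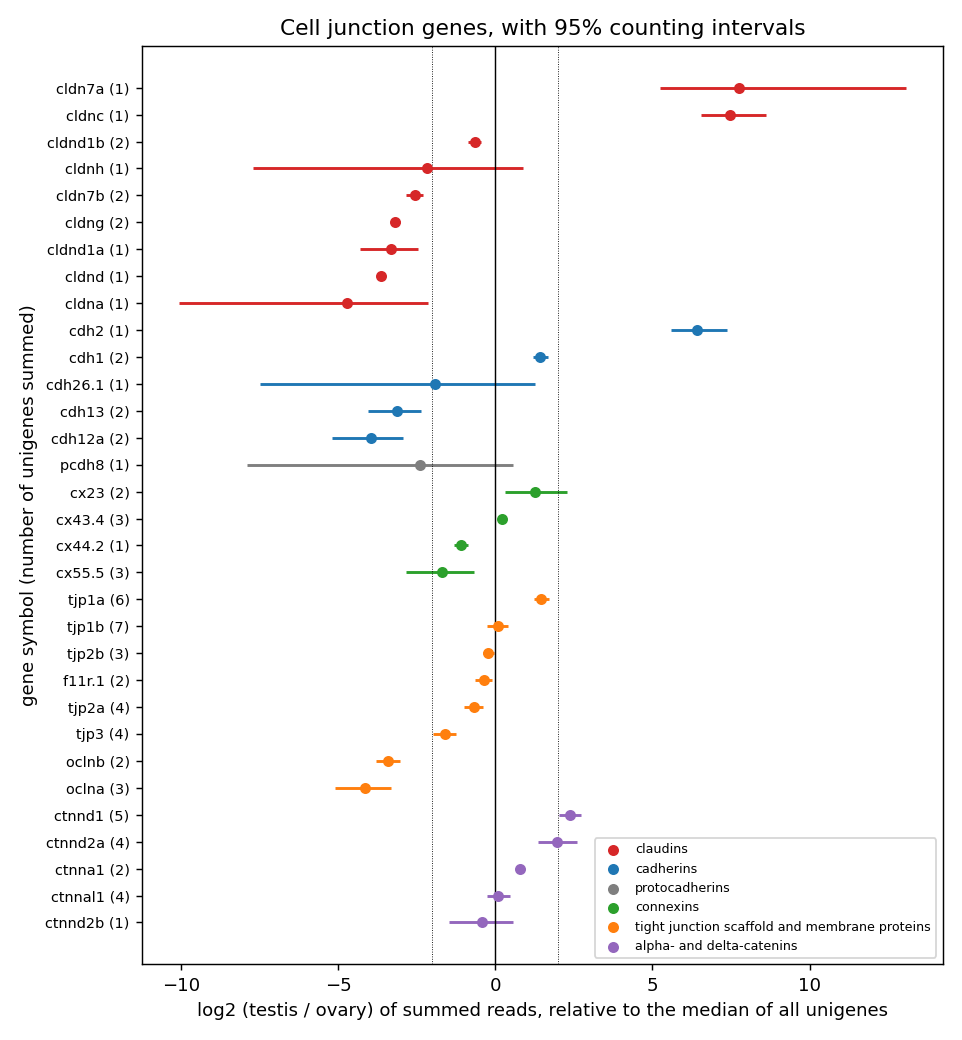
Log2 ratio of testis over ovary reads relative to the median of all unigenes (x axis), for each of the 32 symbols with its unigenes summed (y axis, number of unigenes in brackets), coloured by family. Bars are exact 95% counting intervals, the solid line is the median of all unigenes and dotted lines mark 4-fold; cldn7a, cldnc and cdh2 stand far to the right, and oclna, oclnb, cdh12a, cldna and cldnd to the left.

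Unigenes of one symbol often differed from each other, and the carp genome is duplicated, so 2 unigenes can be gene copies, transcript forms or pieces of one transcript. Which of these they are was not tested. There were 17 pairs of junction unigenes with neighbouring numbers and the same symbol. For each pair, the share of its reads that fell on the first unigene was compared between the libraries, a measure that needs no scaling. The 95% intervals of the shares did not overlap for 5 of the 17 pairs, against 16.6% of all such pairs in the tables. Of the 10 pairs with at least 50 reads in each library 5 did not overlap, against 28.2%. Unigene_14455 held 63.6% (95% interval 58.1 to 68.8) of the f11r.1 pair in ovary and 14.7% (95% interval 10 to 20.6) in testis. Unigene_71810 held 5.44% (95% interval 2.93 to 9.12) of the cdh1 pair in ovary and 54.3% (95% interval 49.8 to 58.8) in testis. The cdh1 reads of ovary thus fell almost wholly on Unigene_71811, and those of testis on both. Unigene_18724 held 45.4% (95% interval 42.6 to 48.2) of its cx43.4 pair in ovary and 83.2% (95% interval 80.5 to 85.6) in testis. Unigene_18078 held 64.1% (95% interval 60.8 to 67.3) of the oclnb pair in ovary and 27.9% (95% interval 17.2 to 40.8) in testis. Unigene_15825 held 46.8% (95% interval 45.4 to 48.2) of the cldng pair in ovary and 18.7% (95% interval 15 to 22.8) in testis. The ctnna1 pair was divided alike, with 46.8% (95% interval 43.5 to 50.2) and 48% (95% interval 45.1 to 50.9) on Unigene_72292, as was the cldnd1b pair with 60.7% and 57.8% on Unigene_18474.

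**Figure D4:**
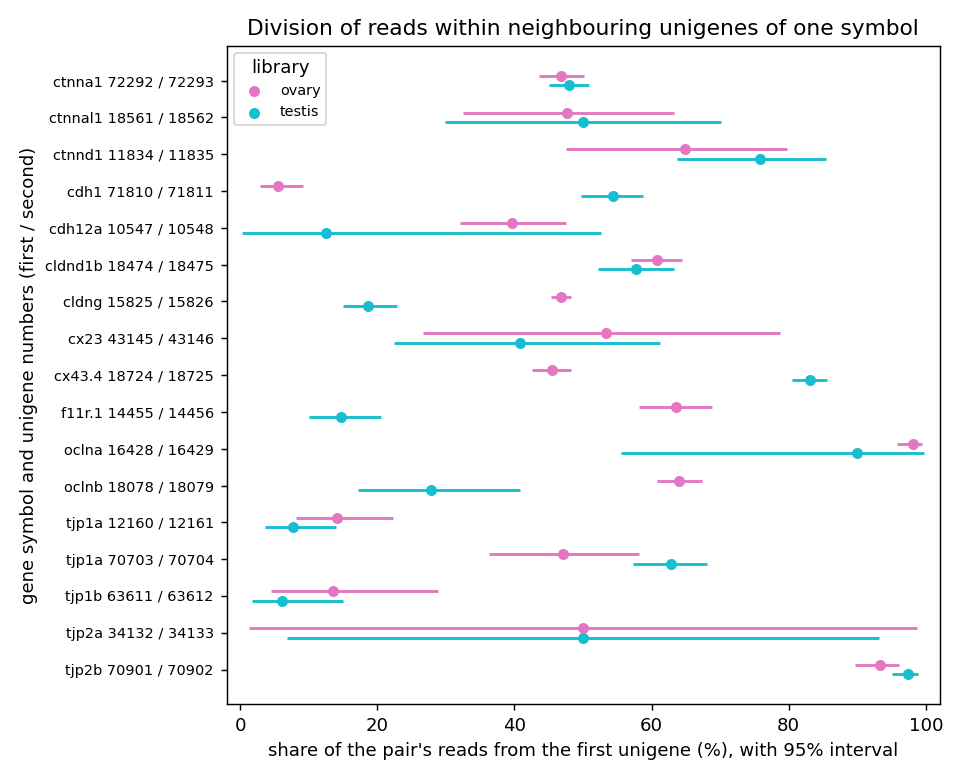
Share of a pair's reads that fell on its first unigene (x axis, percent), for the 17 pairs of neighbouring unigenes with one symbol (y axis), in the ovary and testis libraries; bars are exact 95% intervals. The intervals lie apart for cdh1, cldng, cx43.4, f11r.1 and oclnb, and overlap for the other 12 pairs.

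Junction unigenes also had ratios that followed their number in the tables. Relative to all unigenes, the median log2 ratio was -0.86 for numbers under 23700 and 1.14 for higher numbers, and neither labels nor headers say what the numbering reflects. Of the 45 junction unigenes below 23700, 43 reached the floor, and 15 of these were higher in ovary and 0 in testis, against 19.4% and 0.200% of all unigenes in that range. Of the 32 from there on, 28 reached the floor, and 2 were higher in ovary and 10 in testis, against 1.89% and 29.1%. The 12 symbols with unigenes in both ranges had, in all 12, a higher ratio in the upper range, by a median of 1.64 on the log2 scale. The boundary was set on the ratios of all unigenes, these among them, so a rise across it is in part built in. Symbols outside the set were not counted in this way, so the 12 of 12 has no share of all symbols beside it. Some of the 12 rest on few reads. In the upper range oclna had 2 ovary and 2 testis reads and cx55.5 had 2 and 1, and in the lower range ctnnd2a had 3 and 3. For tjp1a the lower range held 132 ovary and 127 testis reads and the upper range 87 and 328. For tjp1b these were 130 and 42 against 38 and 91. Against the median of their own range, 10 of the 43 in the lower range passed the 4-fold threshold toward ovary and 2 toward testis, where 8.50% and 1.18% of all unigenes of that range did. In the upper range 4 of the 28 passed toward ovary and 5 toward testis, against 5.93% and 10.3%. The 3 unigenes of the authors' testis list lie in the upper range and are among both the 10 and the 5 toward testis. Their direction was fixed by that selection. Without them, 4 of the 68 above the floor in both ranges together passed toward testis, where 5.45% of all unigenes did. All unigenes here still include the 147 found only in the authors' testis list, so the sets compared are unlike. The 2 unigenes of the upper range that were higher in ovary were cldnd and Unigene_68242 of cldn7b. Relative to their own range, the claudin median was -1.85 and the catenin median 0.92, both in the direction given above.

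**Figure D5:**
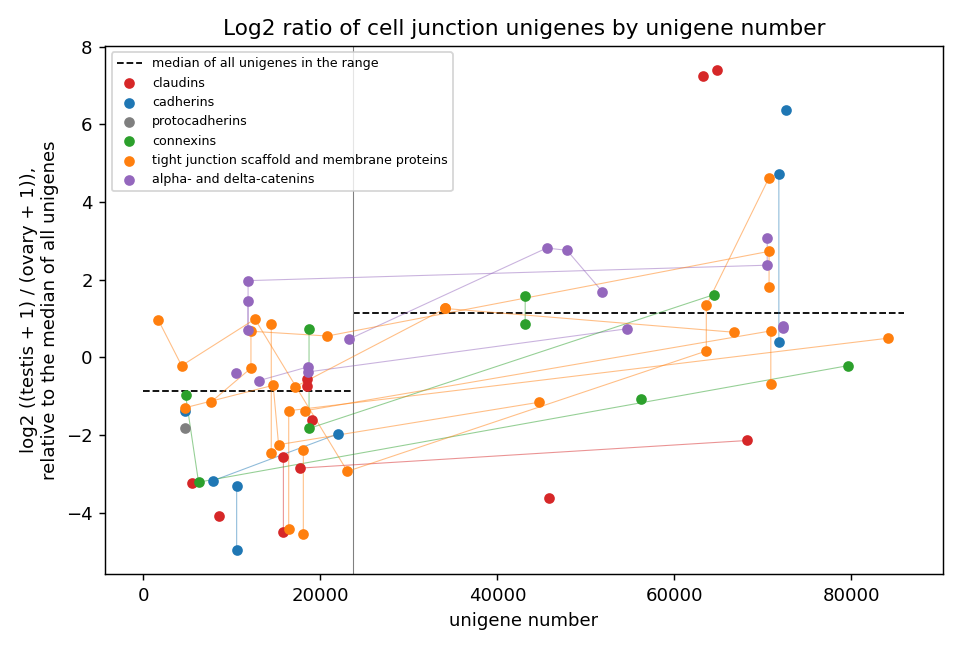
Log2 ratio of testis over ovary (values plus 1) relative to the median of all unigenes (y axis) against unigene number (x axis) for the 77 junction unigenes, coloured by family, with thin lines joining unigenes of one symbol. Dashed lines are the medians of all unigenes below and from 23700, at -0.86 and 1.14; most junction unigenes follow that step, while cldnd lies far below the line of its range.

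Other genes of cell junctions, from a list of 135 symbols for adherens, tight, gap and desmosomal junctions and polarity complexes, were measured for 41 symbols in 143 unigenes. Of the 138 above the floor, 31 (22.5%) were higher in testis and 14 (10.1%) in ovary, against 13.8% and 11.2% of all unigenes, and their median log2 ratio was 0.46. That median was -0.37 on the deposited scale, where all unigenes lie at -0.83. With a floor of 20 units it was -0.07, where all unigenes over that floor have -0.18. Of the 143 unigenes 77 have numbers from 23700 on, where the ratios of all unigenes lie toward testis. Against the median of their own number range, 9 of the 138 passed the 4-fold threshold toward testis and 9 toward ovary. Of all unigenes 5.45% and 7.29% did so, and the median log2 ratio of the list was then 0.18. At the ovary end were both unigenes of crb3b, a small membrane protein of the Crumbs polarity complex, with 171 ovary and 3 testis reads and 107 and 3. With them stood marveld3, a tight junction protein related to occludin, with 46 ovary reads and 1 testis read. The adhesion protein epcam had 6700 ovary and 401 testis reads in Unigene_62367, 12.5-fold higher in ovary, and 1108 and 105 in its other unigene. At the testis end, the desmosomal cadherin dsc2l had 4 ovary and 274 testis reads, and comes from the authors' testis list alone. The tight junction plaque protein cgnb (cingulin) had 13 ovary and 450 testis reads in Unigene_70492, 46.2-fold (95% interval 26.7 to 87.4) higher in testis, but 2.92-fold with its 3 unigenes summed. The polarity protein scrib had 3 and 43 reads in Unigene_60100, and its 11 unigenes together had 150 ovary and 188 testis reads. The scaffold magi1b had 1 and 17 reads in Unigene_50414, and its 7 unigenes together had 87 and 58. Beta-catenin, ctnnb1, which sits between classical cadherins and alpha-catenin, had 1834 ovary and 1567 testis reads over 3 unigenes. Their sum was 1.14-fold (95% interval 1.06 to 1.22) toward testis relative to the median and 1.56-fold toward ovary as deposited. Of these, Unigene_72431 lay toward ovary, with 519 ovary and 316 testis reads.

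Markers of cell types the gonads could hold were read beside these genes, and their part in the junction results was not tested. All 34 oocyte unigenes measured, of 14 of 20 symbols, lay below the median of all unigenes, with 247570 ovary and 14902 testis reads in sum and a median log2 ratio of -3.6. The 4 testis somatic unigenes, of 4 of 9 symbols with cldn11a among them, are all in the authors' testis list and held 30 ovary and 2106 testis reads. The 16 epithelial unigenes, of 10 of 22 symbols, which include those of cdh1 and epcam, held 9795 ovary and 1821 testis reads. Of the 15 above the floor 5 (33.3%) were higher in ovary and 2 (13.3%) in testis. Of all unigenes 11.2% and 13.8% were. Of the 16, 1 comes from the authors' testis list alone, which fixed its direction, so the testis share cannot be set against that of all unigenes. The epithelial regulator esrp2 had 219 and 218 ovary against 21 and 30 testis reads, whereas krt15, a keratin of the authors' testis list, had 3 ovary and 274 testis reads. Of 20 endothelial symbols kdrl alone was measured, with 23 ovary and 63 testis reads over 4 unigenes. The 10 skeletal muscle unigenes, of 8 of 20 symbols, held 976 ovary and 47 testis reads, and the 9 blood and immune unigenes, of 4 of 16, held 681 and 471. One of these, Unigene_16938 of mpx, had 610 ovary and 4 testis reads. By call 5 of the 9 were higher in testis and 1 in ovary, and of all unigenes 13.8% and 11.2% were. Of the 9, lyz comes from the authors' testis list alone, which fixed its direction. The testis share can therefore not be set against that of all unigenes. Against the median of their own number range, 2 of the 9 were called toward testis, lyz among them, and 1 toward ovary. The median log2 ratio of the blood and immune list was 2.81, and 1.70 against the medians of the number ranges. The 9 germ cell unigenes, of 4 of 10 symbols, held 4932 ovary and 3349 testis reads. Relative to the median of all unigenes 7 of the 9 lay toward testis, with a median log2 ratio of 0.52, or -0.31 as deposited. By call 1 was higher in testis and 2 in ovary, against 13.8% and 11.2% of all unigenes.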

How the data were processed

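RNA sequencing of 1 testis and 1 ovary library was analysed from 3 deposited tables. The deposited values are a signal that looks like reads scaled by a single factor in each library, which the headers do not state. The values rise in steps of 2.31 units in ovary and 1.73 in testis. Each step was taken as 1 read, which gave whole reads within 0.01 for all 77 junction unigenes. The ovary and testis steps multiply to 4.00, where scaling factors with a product of 1 and steps of 1 read would give 1. A step may thus stand for more than 1 read, which was not tested, and all counts of reads given here rest on this choice. The deposited log2 fold change is column B over column A, recomputed from the values, and p-values are copied as deposited by the authors. Which aligner, assembler, counter and build were used is not given in the sources used here.

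Ratios were log2 of testis plus 1 over ovary plus 1, less the median of all unigenes. Medians used a floor of 1 unit in the higher library, and calls a floor of 5. Folds are ratios of reads without a pseudocount, so 4 unigenes with read ratios of 4-fold or more were not called. The boundary at number 23700 is the split that best divides the ratios of all unigenes by least squares, to the nearest 100. No count model was fitted, for want of replicates. Calls, intervals and boundary were tested on simulated data with planted changes and a planted boundary. The simulated counts held counting error only, with no spread between libraries and no reads shared between unigenes. They therefore do not check the calls for either of these. Named genes were every member of the testis list and, in each family, the unigene with most reads in each library. In each family the 3 highest and 3 lowest log2 ratios with at least 10 units were also named. Other unigenes of those symbols are given singly or within the sum of the symbol. For tjp1a, tjp1b, ctnnd2a, ctnnal1 and cx23 some or all appear only in the sum. Of the other junction genes 4 at each end were named. Further members are given for completeness and were chosen after their values were seen, as were the pairs of neighbouring unigenes. Members and lists were chosen with earlier results of these data known. Of the 32 symbols 14 matched RefSeq assembly ASM1834038v1, used for names only. The deposited protein name is only an uncharacterized protein for 49 of the 77 unigenes and names the family for 25, so the set rests on the symbols. Single unigenes are uncertain, because near-identical ones may share reads. Python 3.11.15, numpy 2.4.6, pandas 2.3.3, scipy 1.17.1 and matplotlib 3.10.9 were used.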

Additional observations from a re-analysis of the deposited data

How the results depend on the processing

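Among members there were 17 ovary and 10 testis calls (23.9% and 14.1%, all unigenes 11.2% and 13.8%). The deposited scale gave 25 and 6 (35.2% and 8.45%, all unigenes 23.2% and 6.14%), and equal total reads 12 and 17 (16.9% and 23.9%, all 5.46% and 23.2%). Summing the unigenes of a symbol gave 9 and 5 (28.1% and 15.6%, all 10.6% and 7.98%). A 2-fold threshold gave 28 and 17 (39.4% and 23.9%, all 27.2% and 27.3%), and an 8-fold threshold 10 and 6 (14.1% and 8.45%, all 4.38% and 5.25%). The members' share toward ovary was above that of all unigenes under each of these. The testis counts of these settings all include cldnc, cldn7a and cdh2, whose direction was fixed by the authors' selection. Those testis shares can therefore not be set against the shares of all unigenes. With the expression table alone, which leaves these members out, 10.3% were higher in testis, against 13.2% of all unigenes. For summed symbols and the 8-fold threshold the testis share without them was not counted. Other settings kept both counts within 1.5 times. The median log2 ratio of -0.25 became 0.50 with equal total reads and kept its sign under the other settings. That of the other junction genes, 0.46, became -0.37 as deposited and -0.07 with a floor of 20 units, where all unigenes over that floor have -0.18. By family, connexins (-0.21) became 0.24 with a pseudocount of 10 and 0.54 with equal total reads, the occludin, F11r and tjp group (-0.21) 0.21 and 0.54, and catenins (0.78) -0.05 as deposited. With a floor of 20 units connexins had -0.98 and the occludin, F11r and tjp group -0.72, both further toward ovary than the -0.18 of all unigenes. Claudin and cadherin medians stayed below 0 under all settings. The turns with the deposited scale and equal total reads follow from the centring, which puts the median of all unigenes at -0.83 and 0.75, and for the pseudocount and the floor the cause was not tested. Both family medians of -0.21 are values of single unigenes, Unigene_79602 of cx55.5 and Unigene_4330 of tjp1b. Each of these has 2 ovary reads and 1 testis read, under the floor for calls. No paired analysis was possible because each tissue has 1 library and the labels give no replicate numbers. With a floor of 20 units no protocadherin was left. Of the 77 unigenes 14 had under 10 reads in all, and no unigene in the tables is listed at 0, so transcripts read in 1 tissue alone are not covered.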
